A study of Mus musculus with 4 samples.

Results

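Neuropeptides and neurotrophic factors are secreted signals best known from the nervous system. Here 5 genes for such signals, Tac1, Penk, Bdnf, Ntf3 and Gdnf, and 1 gene for an intracellular protein of growing axons, Crmp1, were followed in cells cultured from the mouse hair follicle. They were picked by gene name from the 51826 genes of the deposited count table. All 6 were found, each on a single row, and all 6 were among the 16734 genes whose raw counts averaged 10 or more over the libraries. They had been chosen with earlier results of the same libraries in view, so their values are a description and carry no test.

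Dermal papilla cells (DPCs) are mesenchymal cells at the base of the follicle, and dermal sheath cells (DSCs) line its outside. Both were grown in DMEM from whisker follicles. The labels give the genotype as WT, and the study's methods describe EGFP-transgenic C57BL/6J donors 5 to 6 weeks old, a transgene that would then be shared by all groups. Cells called low-passage were in their 3rd passage and cells called high-passage in their 9th passage, and the labels name no other treatment. Each of the 4 groups was sequenced as 1 library, with total counts between 34981284 and 47604059. There were therefore no replicates, no difference below has a replicate check, and passage cannot be told apart from any difference in when a culture or its library was made.

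Tac1 and Penk encode neuropeptide precursors. Tac1 gives substance P and neurokinin A, which act on tachykinin receptors, and Penk gives the enkephalins, which act on opioid receptors. Bdnf and Ntf3 encode neurotrophins, dimeric growth factors that keep sensory neurons alive through the receptor kinases encoded by Ntrk2 and Ntrk3 and also bind the shared receptor encoded by Ngfr. Gdnf encodes a distant member of the TGF-beta family that binds a GPI-anchored co-receptor, encoded by Gfra1, and signals through the kinase Ret or through Ncam1. Crmp1 is not secreted: it encodes a cytosolic phosphoprotein that relays semaphorin signals to the cytoskeleton of growing axons. Hair follicles are densely innervated, and in skin substance P and neurotrophins are known for effects on follicle cycling and on the nerve fibres around the follicle.

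A neuropeptide precursor holds its peptides as short stretches that convertases cut out, and the coding sequence of Penk shows this directly. In the 804 coding bases of its transcript Penk-201 (GENCODE M21, GRCm38, minus strand), a search for the codons of methionine-enkephalin found 6 in-frame units, and a search for those of leucine-enkephalin found 1 unit. The last base of every codon was left free, apart from the methionine codon. Codon pairs for basic residues, the usual cutting sites, stood on both sides of 4 of the 6 methionine units and of the leucine unit. In the units below the 15 peptide-coding bases are in capitals, and the coordinates are those of the capitals. They are shown because Penk had the highest level of the 6 genes in any library.
Met-enkephalin unit, chr4:4134334-4134348: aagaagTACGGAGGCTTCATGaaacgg
Met-enkephalin unit, chr4:4134226-4134240: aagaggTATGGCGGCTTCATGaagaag
Leu-enkephalin unit, chr4:4133941-4133955: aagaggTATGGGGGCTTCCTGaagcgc
Met-enkephalin unit, chr4:4133848-4133862: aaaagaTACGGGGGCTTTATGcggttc

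Tac1 was the gene that went from no counts at passage 3 to counts in both cell types at passage 9, and its RefSeq promoter (GRCm38.p6, plus strand, 250 bases before to 50 bases after the annotated start) held 3 of the 6 motifs searched on both strands. The cyclic AMP response-like letters TGCGTCA began 199 bases before the start and occurred in 2.12% of all 32851 promoter windows of 300 bases. An E-box, CACGTG, began 61 bases before the start and occurred in 7.15% of all windows. A GC box, GGGCGG, began 107 bases before the start and occurred in 35.7% of all windows. These distances are to the RefSeq start, which lies downstream of the first base of the counted gene, chr6:7554879. The E-box and the GC box thus lie inside the gene as counted, and the TGCGTCA letters lie before it. Windows of 30 bases around each are shown with the motif in capitals.
Tac1, chr6:7554851-7554880: ttccctaaaatTGCGTCAtttcgaacacaa
Tac1, chr6:7554942-7554971: cgaaaggcgaggGGGCGGctaattaaatat
Tac1, chr6:7554988-7555017: tggggagagtgtCACGTGgctctacaggct

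The other motifs were the cyclic AMP response element TGACGTCA, the AP-1 element TGANTCA and the TATA box TATAAA, found in 1.79%, 7.81% and 13.6% of all windows. RefSeq windows were matched for Tac1 (1), Bdnf (7), Ntf3 (2), Gdnf (2) and Crmp1 (2). The TATA box was found in 1 of the 2 Gdnf windows, beginning 31 bases before the RefSeq start. That window lies wholly upstream of the counted gene, which begins at chr15:7811011. The AP-1 letters were found in 1 of the 7 Bdnf windows, beginning 152 bases before the RefSeq start, and that window lies inside the counted gene. Both Crmp1 windows, both Ntf3 windows and 2 of the 7 Bdnf windows held a GC box, and 1 of the 2 Ntf3 windows held an E-box. The Gdnf and Bdnf matches are given below for comparison with Tac1, both on the plus strand with the motif in capitals. A match is a description of the letters and not of a working site.
Gdnf, chr15:7810005-7810034: cagtgagagctcTATAAAtgcatccccact
Bdnf, chr2:109676869-109676898: acccacaaaaaTGAATCAaggtaatttcag

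Levels were compared as counts per 1000000 counts (CPM) after TMM scaling of the libraries, with exact 95% Poisson intervals. Differences are given on the log2 scale with a prior count of 2, each with an interval from the exact Clopper-Pearson interval of 1 library's share of the reads of both. These intervals cover counting error only and compare 2 libraries, not conditions. A difference of at least 4-fold, the threshold in the study's text, was called higher or lower. A library with 0 counts may still hold up to 3, that is between 0.0658 and 0.0836 CPM here.

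Tac1 (ENSMUSG00000061762, chr6:7554879-7565834, plus strand) had 0 counts in passage 3 DPCs and 0 in passage 3 DSCs, 993 in passage 9 DPCs and 76 in passage 9 DSCs. Substance P precursor RNA was thus seen, at this depth, in the passage 9 libraries alone. Its level was 27.7 CPM (26.0 to 29.4) in passage 9 DPCs and 1.67 CPM (1.31 to 2.09) in passage 9 DSCs. Against the level of the 3 counts that a count of 0 allows, the passage 9 level was 339-fold in DPCs and 21.1-fold in DSCs. With the counting error of both libraries, Tac1 was at least 276-fold higher at passage 9 in DPCs and at least 16.7-fold higher in DSCs, and these limits were 138-fold and 8.16-fold with halved counts. Between the passage 9 libraries, Tac1 was 16.6-fold higher in DPCs than in DSCs (13.1 to 21.2). With 0 counts in both passage 3 libraries, no fold between the cell types can be given there. No other gene of the GENCODE M21 annotation overlapped Tac1. In bulk samples such as these, fewer cells of a type and less RNA per cell cannot be told apart.

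Penk (ENSMUSG00000045573, chr4:4133531-4138819, minus strand) had 166 counts in passage 3 DPCs, 6605 in passage 9 DPCs, 225 in passage 3 DSCs and 391 in passage 9 DSCs. One library, passage 9 DPCs, stood far above the other three. The levels were 4.51 CPM (3.85 to 5.25), 184 CPM (180 to 189), 5.93 CPM (5.18 to 6.76) and 8.58 CPM (7.75 to 9.47) in the same order. With passage Penk was 40.8-fold higher in DPCs (34.98 to 47.9) and 1.45-fold higher in DSCs (1.22 to 1.71), which is under the 4-fold threshold. The difference between the log2 changes of DPCs and DSCs was 4.81 (4.48 to 5.13). At passage 9 Penk was 21.5-fold higher in DPCs than in DSCs (19.4 to 23.8). At passage 3 it was 0.760 times the DSC level (0.618 to 0.933), a difference whose interval included 1 when the counts were halved. The gene A830012C17Rik on the opposite strand shares 233 exonic bases with Penk, 14.3% of its exonic length, and had between 0 and 8 counts in any library.

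Bdnf (ENSMUSG00000048482, chr2:109674700-109727007, plus strand) was present in every library, with 1578 counts in passage 3 DPCs, 2574 in passage 9 DPCs, 2430 in passage 3 DSCs and 6430 in passage 9 DSCs. This brain-derived neurotrophin was higher at passage 9 than at passage 3 in each cell type, and higher in DSCs than in DPCs at each passage. Its levels were 42.9 CPM (40.8 to 45.0), 71.7 CPM (69.0 to 74.6), 64.1 CPM (61.6 to 66.7) and 141 CPM (138 to 145). The change with passage was 1.67-fold in DPCs (1.57 to 1.78) and 2.20-fold in DSCs (2.10 to 2.31), and neither reached 4-fold. On the log2 scale the change in DPCs minus that in DSCs was -0.40 (-0.51 to -0.28). Passage 9 DPCs and passage 3 DSCs were the closest neighbours, at a ratio of 1.12 (1.06 to 1.184). The antisense gene Gm45346, which shares 896 exonic bases with Bdnf, had 0 counts in 3 libraries and 2 counts in passage 9 DSCs.

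Ntf3 (ENSMUSG00000049107, chr6:126101412-126166910, minus strand) was the lowest of the genes seen in every library, with 22 counts in passage 3 DPCs, 12 in passage 9 DPCs, 22 in passage 3 DSCs and 65 in passage 9 DSCs. Passage 3 DPCs, passage 9 DPCs and passage 3 DSCs did not differ from each other beyond counting error. Passage 9 DSCs stood above all of them, at 1.43 CPM (1.10 to 1.82) against 0.598 CPM (0.375 to 0.905), 0.334 CPM (0.173 to 0.584) and 0.580 CPM (0.364 to 0.878). In DSCs the passage 9 level was 2.46 times the passage 3 level (1.496 to 4.19), and in DPCs it was 0.559 times (0.252 to 1.18). The difference between the log2 changes was -1.98 (-3.15 to -0.81). At passage 9 Ntf3 in DPCs was 0.234 times its level in DSCs (0.115 to 0.438), on 12 against 65 counts.

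Gdnf (ENSMUSG00000022144, chr15:7811011-7837575, plus strand) varied least of the 6. It had 228 counts in passage 3 DPCs, 167 in passage 9 DPCs, 174 in passage 3 DSCs and 256 in passage 9 DSCs. Its levels lay between 4.59 CPM (3.93 to 5.32) in passage 3 DSCs and 6.20 CPM (5.42 to 7.05) in passage 3 DPCs. In DPCs the passage 9 level was 0.751 times that at passage 3 (0.611 to 0.921), and in DSCs it was 1.22 times (1.01 to 1.49). With halved counts the intervals of both passage differences included no change. In order from the lowest, passage 3 DSCs, passage 9 DPCs, passage 9 DSCs and passage 3 DPCs did not differ from their next neighbour beyond counting error, and passage 9 DPCs stood to passage 3 DSCs at a ratio of 1.01 (0.815 to 1.26).

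Crmp1 (ENSMUSG00000029121, chr5:37241940-37292133, plus strand) had 113 counts in passage 3 DPCs, 641 in passage 9 DPCs, 95 in passage 3 DSCs and 541 in passage 9 DSCs. Both passage 9 libraries were above both passage 3 libraries. The levels were 3.07 CPM (2.53 to 3.69), 17.9 CPM (16.5 to 19.3), 2.51 CPM (2.03 to 3.06) and 11.9 CPM (10.9 to 12.9). The change with passage was 5.82-fold in DPCs (4.76 to 7.17) and 4.74-fold in DSCs (3.804 to 5.96), and the log2 changes differed by 0.30 (-0.12 to 0.72). At passage 9 Crmp1 was 1.505-fold higher in DPCs than in DSCs (1.34 to 1.69), and at passage 3 the ratio was 1.23 (0.925 to 1.63). The gene Evc lies on the opposite strand across part of Crmp1 and shares 0 exonic bases with it. Evc had between 1161 and 2363 counts, and use of strand in the counting is not given in the sources used here.

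**Figure D1:**
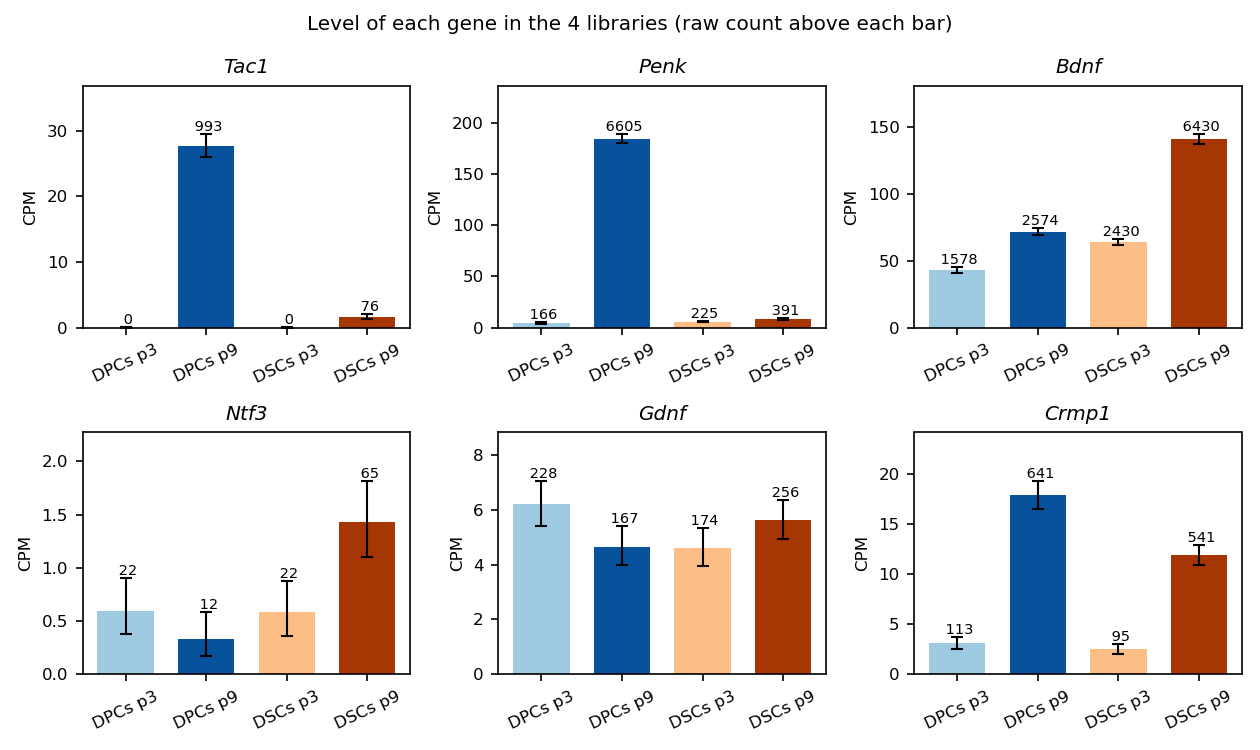
CPM of each of the 6 genes in the 4 libraries (p3 is passage 3 and p9 is passage 9), on linear axes that start at 0, with 95% Poisson intervals as error bars and the raw count above each bar. Tac1 and Penk reached 27.7 and 184 CPM in passage 9 DPCs, Bdnf and Ntf3 were highest in passage 9 DSCs, Crmp1 was higher in both passage 9 libraries, and Gdnf differed little.

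By the 4-fold rule, 3 of the 6 genes were higher at passage 9 in DPCs (Tac1, Penk and Crmp1), where 5.58% of all tested genes were at least 4-fold higher and 9.94% passed in either direction. In DSCs 2 were higher (Tac1 and Crmp1), against 2.67% of tested genes higher and 3.82% either way. None was at least 4-fold lower, beside 4.36% of tested genes in DPCs and 1.16% in DSCs. Tac1 and Crmp1 were higher in both cell types, as were 1.27% of tested genes, while 0.508% were lower in both. Ntf3 and Gdnf had changes of opposite sign in the cell types, as did 29.6% of tested genes, and the interval for Ntf3 in DPCs included no change. The median log2 change over the 6 genes was 1.63 in DPCs and 1.182 in DSCs, beside 0.03 and 0.00 over all tested genes. With a pseudocount of 1 on FPKM, Crmp1 passed 4-fold in neither cell type and Tac1 not in DSCs. The shares are printed as background only, because the genes were picked with the changes known.

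Between the cell types at passage 3, 0 of the 6 genes differed at least 4-fold, against 4.3% of tested genes, 1.52% higher in DPCs and 2.77% lower. At passage 9, 2 of the 6 were at least 4-fold higher in DPCs (Tac1 and Penk), against 2.5% of tested genes higher, 3.91% lower and 6.42% either way. Ntf3 came nearest in the other direction, with a log2 difference of -1.94 (-3.12 to -1.19). The DPC passage comparison and the passage 9 comparison share the passage 9 DPC library, so they are not independent of each other.

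**Figure D2:**
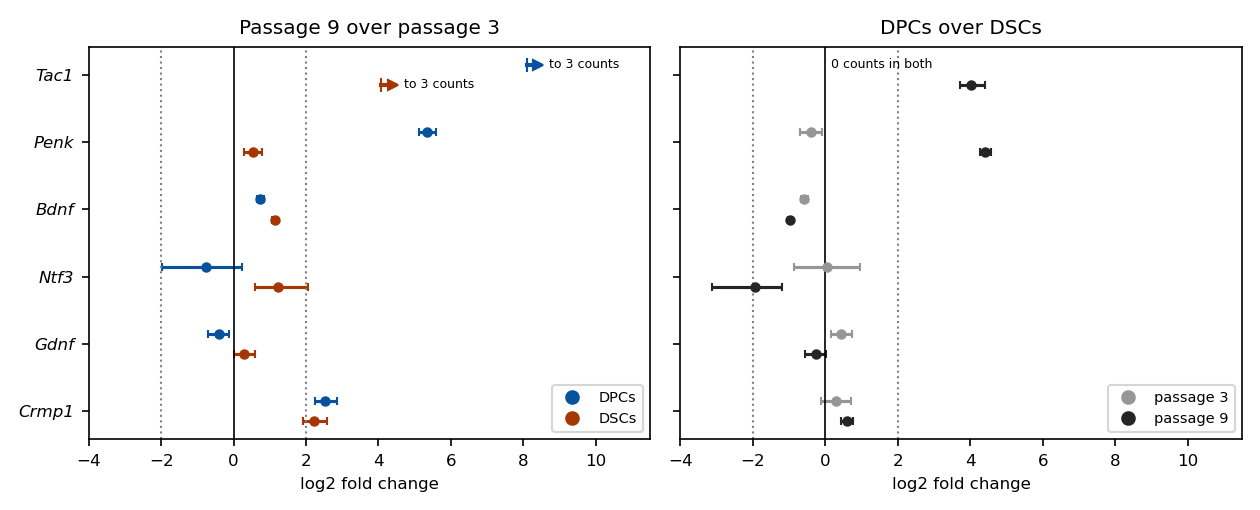
Log2 fold change of each gene between passages (left) and between cell types (right), with points for the estimate, bars for 95% intervals of counting error. Where 1 library had 0 counts, the triangle is the ratio to the level of 3 counts and its bar runs down to the lower limit of the interval. Dotted lines mark 4-fold. Tac1, Penk and Crmp1 lie right of the line in DPCs, while Bdnf, Ntf3 and Gdnf lie inside it.

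Levels of different genes were compared per transcript length, with the deposited FPKM. In passage 9 DPCs Penk had 194 FPKM, at the 98.9th percentile of the genes above 0 in that library, and Tac1 had 30.1 FPKM, at the 90.3rd percentile. Bdnf followed with 16.5, Crmp1 with 6.26, Gdnf with 1.21 and Ntf3 with 0.200 FPKM. In passage 9 DSCs the order was different. Bdnf was first at 30.04 FPKM, at the 91.0th percentile, then Penk at 7.87, Crmp1 at 4.18, Tac1 at 1.58, Gdnf at 1.35 and Ntf3 at 0.829 FPKM.

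At passage 3 the order of FPKM was the same in both cell types. Bdnf was highest, at 9.89 in DPCs and 13.9 in DSCs, followed by Penk at 3.24 and 5.29, Gdnf at 1.62 and 1.13, Crmp1 at 1.198 and 0.771, and Ntf3 at 0.407 and 0.335, while Tac1 was listed at 0. The median over genes above 0 was between 1.44 and 2.01 FPKM. Dividing CPM on total counts, without TMM, by FPKM gives the transcript length that the authors' FPKM implies. For Penk it was 1.45 kb in passage 3 DPCs and between 0.97 and 1.10 kb in the other libraries, and the log2 change of Penk with passage in DPCs was 5.33 from counts and 5.90 from FPKM.

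**Figure D3:**
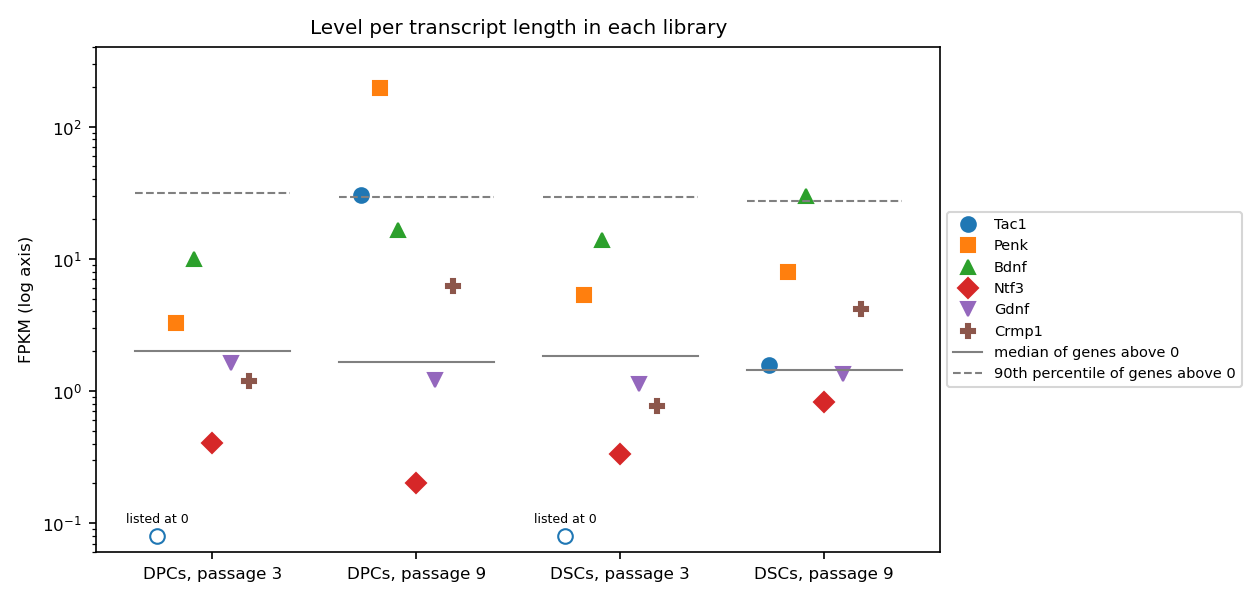
FPKM of each gene in each library on a log axis, with the median (solid line) and the 90th percentile (dashed line) of all genes above 0 in that library; open circles mark Tac1 where it was listed at 0. Penk lies far above the dashed line and Tac1 just above it in passage 9 DPCs, and Bdnf lies just above it in passage 9 DSCs.

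For each of the 6 genes, the 3 genes with the most similar pattern were found as those with the smallest root mean square (RMS) difference of centred log2 CPM over the 4 libraries. No tested gene came close to Tac1: the nearest were Rasgrf1, with 0, 298, 0 and 40 counts in passage 3 DPCs, passage 9 DPCs, passage 3 DSCs and passage 9 DSCs, Rims2 and AC158589.1, at RMS differences of 0.72, 0.84 and 0.93. The gene nearest to Penk was Il23r, at 0.18, followed by Ntng1 at 0.23 and Kcnh1 at 0.26, and 2 genes lay within 0.25. For Bdnf they were Il4ra, Mpzl3 and Icam5, all between 0.06 and 0.07. For Ntf3 they were Lipg, Gm15441 and Nppa, between 0.08 and 0.10, and for Crmp1 they were AC158605.3, Acsl6 and Tnfsf18, between 0.12 and 0.14. The flat pattern of Gdnf was shared most widely: 3799 genes lay within an RMS difference of 0.25, led by ENSMUSG00000026977, Csnk1d and Gm9967. Among the 6 themselves the most similar pair was Bdnf and Ntf3, at 0.54, and the least similar was Tac1 and Ntf3, at 4.01. With 4 libraries these values only describe the pattern.

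The receptors through which the 6 products act were counted from a list of 22 genes, of which 13 passed the minimum count and 4 had 0 counts in every library. In DPCs 4 of them were at least 4-fold higher at passage 9 and 1 was lower, with a median log2 change of -0.17. In DSCs 1 was higher and 2 were lower, with a median of -0.14. The medians over all tested genes were 0.03 and 0.00, and 5.58% of them were at least 4-fold higher and 4.36% lower in DPCs, with 2.67% and 1.16% in DSCs.

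Tacr1, the receptor for substance P, had 7 counts in passage 3 DPCs, 42 in passage 9 DPCs, 3 in passage 3 DSCs and 78 in passage 9 DSCs. It was low in every library and higher in both passage 9 libraries. Its log2 change was 2.34 in DPCs (1.45 to 4.02) and 3.76 in DSCs (2.83 to 6.74). The receptors Tacr2 and Tacr3, for the other tachykinins, had at most 3 counts in any library. The opioid receptors Oprd1, Oprm1 and Oprk1 had 0 counts in all 4 libraries. Ackr3, an atypical chemokine receptor that also binds opioid peptides, had 100, 623, 130 and 445 counts in the order passage 3 DPCs, passage 9 DPCs, passage 3 DSCs and passage 9 DSCs, a log2 change of 2.65 in DPCs (2.37 to 3.00) and 1.496 in DSCs (1.23 to 1.80).

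Ntrk2, the kinase for the product of Bdnf, had 14 counts in passage 3 DPCs and 66 in passage 9 DPCs, and 36 in passage 3 DSCs and 6 in passage 9 DSCs. Its changes with passage were opposite, with a log2 change of 2.13 in DPCs (1.43 to 3.22) and -2.45 in DSCs (-4.39 to -1.59). The passage 9 DSC library, where Bdnf was highest, had the lowest Ntrk2 level, but on 6 counts, at 0.132 CPM (0.0483 to 0.287). This interval overlaps that of passage 3 DPCs, at 0.380 CPM (0.208 to 0.638). Ntrk3, the kinase for the product of Ntf3, had 427 counts in passage 3 DPCs, 111 in passage 9 DPCs, 390 in passage 3 DSCs and 313 in passage 9 DSCs. Its log2 change from counts was -1.89 in DPCs (-2.22 to -1.60) and -0.58 in DSCs (-0.80 to -0.36), under 4-fold in both. Its FPKM at passage 3 and passage 9 was 1.82 and 0.959 in DPCs and 1.17 and 1.56 in DSCs. The direction in DSCs thus depended on the measure.

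Ngfr, the receptor shared by all neurotrophins and their precursors, had 144 counts in passage 3 DPCs and 544 in passage 3 DSCs, and 0 in both passage 9 libraries. With the counting error of both libraries, Ngfr was at least 37.6-fold lower at passage 9 in DPCs and at least 177-fold lower in DSCs, and these limits were 18.5-fold and 88.0-fold with halved counts. Ngfr is also a marker of Schwann cells. All 10 Schwann and glial markers listed had a count in both passage 3 libraries. At passage 9, 6 of the 10 still had a count in DPCs and 7 in DSCs, while Sox10, Foxd3 and Cdh19 had 0 in both. The part of Schwann cells in the Ngfr result was not tested. Sort1, the sortilin that binds precursor neurotrophins, was higher at passage 9, with log2 changes of 1.80 in DPCs (1.71 to 1.89) and 1.01 in DSCs (0.94 to 1.09). Sorcs2, a sortilin family receptor, had 1358 counts in passage 3 DPCs and between 5897 and 6412 in the other libraries, and its log2 change in DPCs was 2.15 (2.07 to 2.24).

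Gfra1, the co-receptor for GDNF, had 323 counts in passage 3 DPCs, 656 in passage 9 DPCs, 972 in passage 3 DSCs and 2877 in passage 9 DSCs. Both DSC libraries were above both DPC libraries, with log2 differences of DPCs over DSCs of -1.54 at passage 3 and -1.79 at passage 9. Ret, the kinase that pairs with it, had 28 and 24 counts in DPCs and 130 and 394 in DSCs at passage 3 and passage 9. At passage 9 Ret in DPCs lay below DSCs by a log2 difference of -3.59 (-4.35 to -3.10). Ncam1, the adhesion molecule that can act as an alternative GDNF receptor, had 3642 and 1673 counts in DPCs and 11755 and 15584 in DSCs, with a log2 difference of -2.87 at passage 9 (-2.95 to -2.80). Gfra2, the co-receptor for neurturin, had 11 and 2 counts in DPCs and 91 and 68 in DSCs. Ret, Ncam1 and Gfra2 were named because they passed 4-fold in this comparison of the cell types, so their direction is a description. Of the other GDNF family receptors listed, Gfra4 had 48 and 22 counts in DPCs and 66 and 50 in DSCs, Sdc3 had 19832 and 8907 in DPCs and 28400 and 27476 in DSCs, and Gfra3 had at most 2 counts. Gdnf in DPCs was 1.35 times its level in DSCs at passage 3 and 0.828 times at passage 9.

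Processing of precursors into active peptides was covered by 23 genes for convertases, amidation and secretory granules. Of these 15 passed the minimum count. In DPCs 4 were at least 4-fold higher at passage 9 and 1 lower, with a median log2 change of 0.55, and in DSCs 1 was higher and 1 lower, with a median of 0.29. Over all tested genes 5.58% were higher and 4.36% lower in DPCs, and 2.67% and 1.16% in DSCs. The medians over all tested genes were 0.03 and 0.00. The convertases of neuroendocrine granules, Pcsk1 and Pcsk2, had at most 2 counts in any library, although Penk reached 6605 counts. General enzymes were abundant: Furin had between 8035 and 13183 counts, Cpe, a carboxypeptidase that trims the cut peptides, between 17593 and 50291, and Pam, which amidates peptide ends as in substance P, between 8522 and 26291. None of these 3 changed 4-fold in either cell type.

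The genes that passed 4-fold in DPCs were Pcsk6, Scg5, Scg3 and Plat, which were higher, and Mmp9, which was lower, and in DSCs Scg2 was higher and Scg3 lower. Scg5, a chaperone of the convertase encoded by Pcsk2, had 66 and 809 counts in DPCs at passage 3 and passage 9 and 19 and 68 in DSCs, a log2 change of 3.61 in DPCs (3.29 to 4.04) and 1.48 in DSCs (0.82 to 2.39). Scg2, which encodes a granin, had 14 and 27 counts in DPCs and 36 and 228 in DSCs, a log2 change of 2.34 in DSCs (1.89 to 2.95). Scg3 had 0 and 36 counts in DPCs and 6 and 0 in DSCs, so its call in DSCs rests on 6 counts. Pcsk6, a convertase of the secretory pathway, had 2440 counts in passage 3 DPCs and between 20906 and 30650 in the other libraries. Plat, the tissue plasminogen activator, which leads to cleavage of precursor BDNF through plasmin, had 3352 counts in passage 3 DPCs and 67277 in passage 9 DPCs, a log2 change of 4.36 (4.31 to 4.41), and 1876 and 9005 counts in DSCs, a log2 change of 1.997 (1.93 to 2.07). Mmp9, a protease that can also cleave it, had 114 and 4 counts in DPCs and 19 and 8 in DSCs, and Plg had 0 counts in all libraries.

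**Figure D4:**
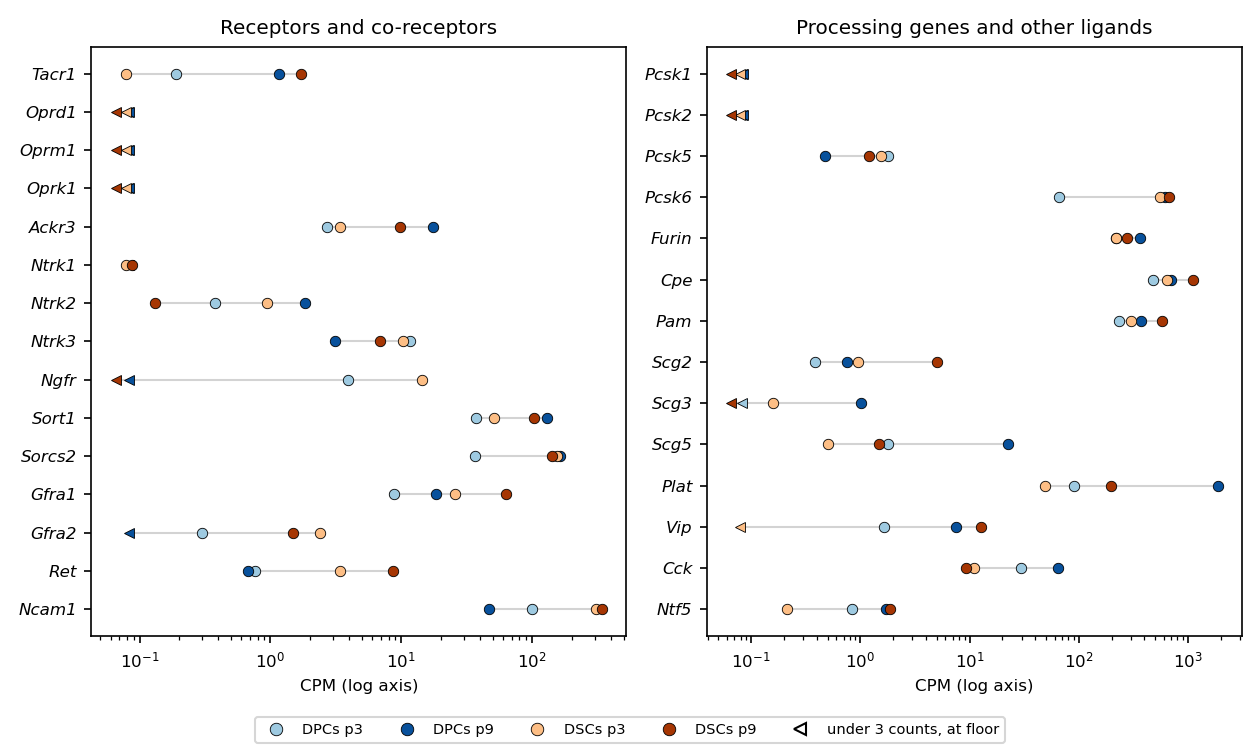
CPM of receptors and co-receptors (left) and of processing genes and other ligands (right) in the 4 libraries, on log axes; points show libraries, triangles mark libraries with under 3 counts and are drawn at the level of 3 counts. The opioid receptors and Pcsk1 and Pcsk2 lie at the floor in every library, Ngfr at the floor at passage 9, and Plat and Scg5 are highest in passage 9 DPCs.

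Other neuropeptide genes differed widely in level. Of 36 further genes for neuropeptides and related peptide hormones, 20 had 0 counts in all 4 libraries, among them the other tachykinin genes Tac2 and Tac4 and the opioid precursor genes Pdyn and Pnoc, and 10 passed the minimum count. In DPCs 1 of these was at least 4-fold higher at passage 9 and 2 were lower, and in DSCs 1 was higher and 0 were lower. The median log2 change was 0.04 in each cell type. Over all tested genes 5.58% were higher and 4.36% lower in DPCs, and 2.67% and 1.16% in DSCs. Adm, for adrenomedullin, had the highest FPKM of the list in every library, between 52.8 and 150, with 5610 and 8026 counts in DPCs and 3171 and 8647 in DSCs, and did not change 4-fold. Vip, for vasoactive intestinal peptide, was the one that was higher in each: it had 60 and 272 counts in DPCs and 2 and 574 in DSCs at passage 3 and passage 9. Its log2 change was 2.18 in DPCs (1.81 to 2.65) and 6.93 in DSCs (6.04 to 10.9), the latter from 2 counts. Adm2 and Nmb, for intermedin and neuromedin B, were the lower ones, with 90 and 5 and with 31 and 6 counts in DPCs. Cck, for cholecystokinin, was higher in DPCs than in DSCs at both passages, with 1093 and 2309 counts in DPCs and 414 and 419 in DSCs. Edn1, for endothelin, was also higher in DPCs, by a log2 difference of 1.78 at passage 3 and 2.02 at passage 9.

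Among 22 other neurotrophic factors, 20 passed the minimum count, and none had 0 counts in every library. In DPCs 6 were at least 4-fold higher at passage 9 and 1 lower, with a median log2 change of 1.05, and in DSCs 4 were higher and 1 lower, with a median of 0.67. Over all tested genes 5.58% were higher and 4.36% lower in DPCs, and 2.67% and 1.16% in DSCs. Ntf5, for neurotrophin-4, had 31 and 61 counts in DPCs and 8 and 85 in DSCs, with a log2 change of 2.87 in DSCs (2.10 to 4.40).

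Neurturin and artemin, the GDNF relatives encoded by Nrtn and Artn, differed from Gdnf. Nrtn had 4 and 42 counts in DPCs and 6 and 36 in DSCs, and was at least 4-fold higher at passage 9 in both, with log2 changes of 2.93 (1.97 to 5.37) and 2.01 (1.06 to 3.86). Artn had 31 and 197 counts in DPCs and 132 and 134 in DSCs. The cytokine gene Lif and the heparin-binding factors Mdk and Ptn were at least 4-fold higher in DPCs, with log2 changes of 2.95, 3.26 and 2.66, and Hgf in both cell types, with 3.16 in DPCs and 3.06 in DSCs. Fgf2 had 1590 counts in both passage 3 libraries, 5499 in passage 9 DPCs and 295 in passage 9 DSCs, a log2 change of 1.83 in DPCs and -2.69 in DSCs. Igf1 was at least 4-fold higher in DSCs, with 2026 and 10055 counts, and Gdf15 at least 4-fold lower in DPCs, with 193 and 34 counts.

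Of the 12 enzymes that degrade peptides, which include neprilysin (Mme) for enkephalins and substance P, 11 passed the minimum count. In either cell type 0 of them changed 4-fold with passage, beside 9.94% of tested genes in DPCs and 3.82% in DSCs. Ace was at least 4-fold higher in DPCs than in DSCs at passage 3, by 2.11 on the log2 scale (1.56 to 2.86). Anpep, aminopeptidase N, was lower in DPCs, with log2 differences of -2.03 at passage 3 and -2.58 at passage 9.

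Crmp1 has 4 relatives, Dpysl2 to Dpysl5, which form tetramers with it. None of them passed 4-fold in either cell type, though Dpysl5, with at most 9 counts, was under the minimum count. Dpysl3 was the most abundant, with 9659 and 10943 counts in DPCs and 9937 and 16331 in DSCs, and log2 changes of 0.22 and 0.45. The log2 change of Dpysl2 was -0.76 in DPCs against 0.28 in DSCs, and that of Dpysl4 was -0.14 against -0.37. Of all tested genes, 9.94% changed at least 4-fold with passage in DPCs and 3.82% in DSCs, where 2.67% were higher. In the list of 15 genes for this family and for semaphorin reception, 14 passed the minimum count, 0 changed 4-fold in DPCs and 1 was higher in DSCs. That gene was Sema3a, the semaphorin whose signal Crmp1 relays. It had 1132 and 286 counts in DPCs and 882 and 4670 in DSCs, with log2 changes of -1.94 (-2.14 to -1.76) and 2.14 (2.03 to 2.25).

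All 18 listed regulators of neuronal genes passed the minimum count. Rest, the repressor that keeps many neuronal genes silent outside the nervous system, had 1899 and 2448 counts in DPCs and 1780 and 2494 in DSCs. It was not lower at passage 9, with log2 changes of 0.40 (0.32 to 0.49) and 0.22 (0.13 to 0.31). Of all tested genes, 5.58% were at least 4-fold higher and 4.36% lower in DPCs, and 2.67% and 1.16% in DSCs. By the 4-fold rule 1 regulator was higher in each cell type and 0 were lower. These were Fos in DPCs, at 2.01 (1.66 to 2.41), and Nr4a1 in DSCs, at 2.01 (1.89 to 2.14), both immediate early genes close to the threshold. Between the cell types Fos was at least 4-fold lower in DPCs at both passages, with log2 differences of -2.85 and -2.34. Egr1, also an immediate early gene, was at least 4-fold lower in DPCs at passage 9, at -2.24, and had -1.81 at passage 3.

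Markers of neurons and other cells were summed in each library. Of 15 neuron marker genes, 6 had a count in passage 3 DPCs, 8 in passage 9 DPCs and 9 in each DSC library. The genes Rbfox3, Snap25, Nefl and Isl1 were at 0 in all 4 libraries. The summed level of the neuron list was 21.5 CPM in passage 3 DPCs and 6.72 in passage 9 DPCs. It was 39.1 CPM in passage 3 DSCs and 28.4 in passage 9 DSCs. The sum was thus lowest in passage 9 DPCs, although more of the genes had a count there than in passage 3 DPCs. Its relation to Tac1 and Penk was not tested. Of 10 Schwann and glial markers, 0 were at 0 at passage 3, and 4 in DPCs and 3 in DSCs were at 0 at passage 9. Their sum was 194 and 84.9 CPM in DPCs and 197 and 157 CPM in DSCs, most of it from Pmp22, which fibroblasts also express. Of 8 macrophage and leukocyte markers all were seen in every library, with sums between 86.1 and 176 CPM, lower at passage 9 than at passage 3 in each cell type.

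The keratinocyte genes Krt5, Krt14, Krt1 and Cdh1 and the melanocyte genes Dct, Tyr, Tyrp1 and Mlana were at 0 in all 4 libraries, with list sums between 1.31 and 2.07 CPM and between 11.2 and 28.3 CPM. The melanocyte sum came mostly from Mitf. Endothelial markers summed to at most 5.70 CPM and skeletal muscle markers to at most 0.285 CPM. Fibroblast markers were abundant, with 18571 CPM in passage 3 DPCs, 7373 in passage 9 DPCs, 27062 in passage 3 DSCs and 23957 in passage 9 DSCs. The list of dermal papilla and sheath markers gave 8219, 3453, 6299 and 5734 CPM. Passage 9 DPCs were thus lowest on both lists, mainly through Col1a1, Col1a2 and Acta2, and the part of this in the levels of Tac1 and Penk was not tested.

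Of the 12 genes on the dermal papilla and sheath list, 11 had a count in passage 3 DPCs and 12 in passage 9 DPCs. In each DSC library 11 had a count. Some markers of the named cell types were low. Alpl, Corin and Lepr, known from dermal papillae in vivo, had at most 23 counts in any library, and Lef1 had 508 counts in passage 3 DPCs and 2 in passage 9 DPCs. The paper reports immunostaining of low-passage DPCs for the proteins of Alpl and Lepr. How RNA and protein relate for these genes was not tested. Sox2 was higher in DPCs at both passages, with 1677 and 1491 counts against 269 and 178 in DSCs, and the dermal sheath gene Acta2 had between 67135 and 262118 counts.

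**Figure D5:**
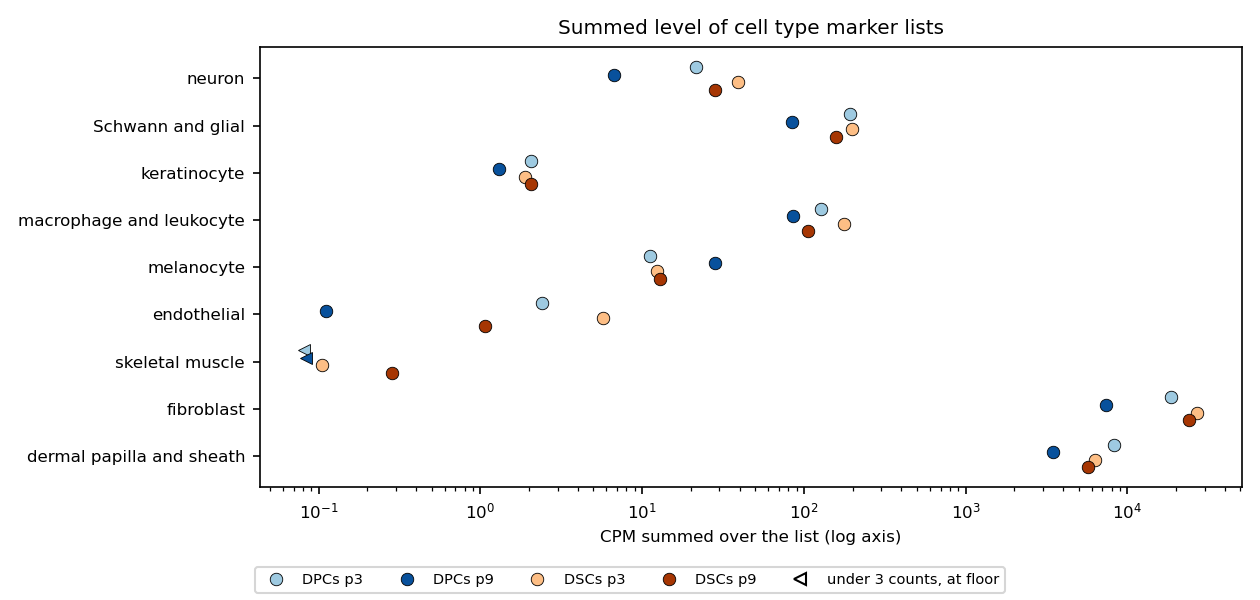
Summed CPM of 9 lists of cell type marker genes in each library, on a log axis; points are libraries, and triangles mark sums under 3 counts. The neuron list is lowest in passage 9 DPCs, at 6.72 CPM, and the fibroblast and dermal papilla and sheath lists are also lowest there.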

How the data were processed

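RNA was extracted with Trizol. The labels name an Illumina TruSeq kit, and the study's methods name a NEBNext Ultra kit with poly-T selection and paired-end sequencing. The authors deposited raw read counts per gene for all libraries in 1 table, which are whole numbers that were not normalized. The authors also deposited FPKM per library, which they normalized for transcript length and depth. The submitters' processing notes name Bowtie 0.12.2 and the builds mm8 and mm9. The aligner and counter behind the counts and the use of strand are not given in the sources used here. The positions in the table are those of GRCm38: of 51826 gene IDs, 51633 were in GENCODE M21, and 94.2% of these had an identical position. FPKM columns were checked against counts across 13485 genes, and each correlated with its own library at 0.965 or above and with any other at 0.158 or below. Even counts were in excess in every library (1339 genes with 2 and 583 with 3 in passage 3 DPCs), as counting both mates of a pair would give. The floor would then be 6 counts instead of 3, and counts were halved as an alternative.

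Libraries were scaled with TMM in edgeR 4.0.16 (R 4.3.3) on 16734 genes with a mean count of at least 10, and log2 CPM used a prior count of 2. With 1 library per group no test was run. Genes were called at an absolute log2 difference of 2, which is 4-fold. For a gene at 0 counts in 1 of 2 libraries, the limit of the interval nearest to no change is given. Intervals were computed with SciPy 1.17.1. Those of fold changes were tested on simulated Poisson counts, which lack the excess of even counts seen here. Those of differences between passage changes came from the variance of the 4 log counts and were not tested in this way. The alternatives were DESeq2 1.42.0 size factors, total counts and upper quartile scaling, other minimum and prior counts, FPKM, halved counts and a 2-fold threshold. The 6 genes, the 7 pathway lists and the 9 marker lists were chosen with earlier results of these data known. The rule for naming took, from each pathway list, up to 6 genes that passed 4-fold in any comparison, by size of change, plus the main receptors, convertases and Dpysl genes whatever their values. Sort1, Rest, Tacr2, Tacr3, Plg, Mme, Tac2, Tac4, Pdyn, Pnoc, Adm, Gfra3, Gfra4 and Sdc3, and Ackr3, Sorcs2, Ptn, Artn, Gdf15 and Igf1 beyond the first 6 of their lists, were named after their values were seen. A result for 1 gene of the lists is not reported here.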

Additional observations from a re-analysis of the deposited data

Results flagged for a closer look

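The following genes had log2 changes with passage of opposite sign in DPCs and DSCs. With 1 library per group the difference was not tested for any of them, and 29.6% of all tested genes had changes of opposite sign. Each value is the log2 change in DPCs minus that in DSCs.

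Of the 6 genes described above, Gdnf was among them, at -0.70, from -0.41 in DPCs and 0.29 in DSCs, although with halved counts both of its intervals included no change. Ntf3 also had opposite signs, but its interval in DPCs included no change. Among receptors, Ntrk2 stood out at 4.58 on at most 66 counts, Sorcs2 had 2.30, from 2.15 in DPCs and -0.14 in DSCs, and Ncam1 had -1.23. Among other ligands, Fgf2 had 4.51, Igf1 had -2.59, from -0.54 in DPCs and 2.05 in DSCs, and Cck had 1.36. Scg3, a granin family gene, had a fitted difference of 6.40, which depends on the prior count because 2 of the 4 libraries had 0 counts. In the semaphorin pathway, Sema3a had -4.08 and Dpysl2, a relative of Crmp1, had -1.04.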

How the results depend on the processing

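All 21 fold changes of the 6 genes that could be compared kept their sign over the settings tried. With a pseudocount of 1 on FPKM 0 of the 6 genes passed 4-fold between DSC passages, and with a 2-fold threshold 4 did. The pseudocount of 1 also left 2 of 3 calls between DPC passages, with Crmp1 at 1.72 against 2.52, and a prior count of 0.5 gave 3 calls in place of 2 between the cell types at passage 9, with Ntf3 at -2.05. The difference between the passage changes was 5.30 for Penk with a pseudocount of 0.1 on FPKM and -0.68 for Ntf3 with a pseudocount of 1, against 4.81 and -1.98.

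Counts over all tested genes (DPC passages, DSC passages, cell types at passage 3, cell types at passage 9) were 2623, 1200, 1323 and 1758 with no minimum count, 755, 207, 301 and 466 with a minimum mean count of 100, 354, 72, 96 and 211 with a pseudocount of 1 on FPKM, and 5210, 2470, 2225 and 3359 at 2-fold. With a prior count of 10 they were 339 for DSC passages, 400 for cell types at passage 3 and 712 at passage 9, and 350 and 392 for DSC passages and cell types at passage 3 with a pseudocount of 0.1. The share of calls that were higher in DPCs moved with the pseudocount of 1, from 35.5% to 46.9% at passage 3 and from 39.0% to 50.2% at passage 9.

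For the pathway lists together, a minimum of 100 gave 13 and 6 calls for DPC and DSC passages, a pseudocount of 0.1 gave 7 for DSC passages and 4 for cell types at passage 3, a pseudocount of 1 gave 6, 2, 1 and 9, and 2-fold gave 48, 31, 34 and 36. By list, receptors had 5 genes with a minimum of 100, 2 with a pseudocount of 1 and 13 at 2-fold. Other neuropeptides had 3 with a prior of 10, 3 with a pseudocount of 1 and 9 at 2-fold, and other neurotrophic factors had 6, 4 and 17 with a minimum of 100, a pseudocount of 1 and 2-fold. Processing genes had 3 with a minimum of 100 and 3 with a pseudocount of 1. Peptide-degrading enzymes had 1 with a prior of 10 or a pseudocount of 0.1, 0 with a pseudocount of 1 and 5 at 2-fold. The semaphorin list had 5 at 2-fold, and regulators had 1 with a pseudocount of 1 and 7 at 2-fold. A pseudocount pulls low values together, a higher minimum tests fewer genes, and other causes were not tested.

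No paired analysis was possible because each group had 1 library and no library was left out. Depth limits Ntf3, Ntrk2, Tacr1, Gfra2, Nrtn, Ntf5, Nmb and Scg3, which rest on fewer than 100 counts in any library.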
